A study of Arabidopsis thaliana with 12 samples.

Results

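Transcripts of 6 Arabidopsis thaliana genes for enzymes of amino acid, nitrogen and sulfur metabolism were followed in plants given proline. The genes were argininosuccinate lyase (AT5G10920), cyanase (CYN, AT3G23490), the ATP sulfurylase APS4 (AT5G43780), cystathionine beta-lyase (CBL, AT3G57050), pyruvate orthophosphate dikinase (PPDK, AT4G15530) and the electron-transfer flavoprotein:ubiquinone oxidoreductase ETFQO (AT2G43400). They were chosen by function, with earlier results of these data known, among the 691 loci measured with a probe annotated to a single gene. Each had 1 probe. All plants were wild type of the ecotype Wassilevskija. The first group of 6 samples came from plants treated with 100 mM proline for 48 h, which the labels describe as raising cellular proline to a toxic level, and the second group of 6 from plants labelled H2O, also described as having had no treatment. Tissue, age, growth medium and pooling are not in the labels. Nor do the labels say that samples of a group came from separate plants, and the p-values below therefore cover the spread among these samples, part of which may be technical.

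Argininosuccinate lyase splits argininosuccinate into arginine and fumarate in the last step of arginine synthesis, and arginine breakdown leads through ornithine towards proline metabolism. Cyanase turns cyanate and bicarbonate into ammonia and carbon dioxide. ATP sulfurylase activates sulfate as the first step of its assimilation, and cystathionine beta-lyase forms homocysteine, the precursor of methionine. Pyruvate orthophosphate dikinase interconverts pyruvate and phosphoenolpyruvate and is known in Arabidopsis for moving nitrogen out of ageing leaves, while ETFQO passes electrons from the breakdown of branched-chain amino acids and lysine to mitochondrial ubiquinone.

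The deposited values were relative intensities on a linear scale. All 6 genes had a value above 0 in all 12 samples, so no value had to be treated as missing. For the tests the values were put on a log2 scale and quantile normalized, and changes are given as proline minus water on that log2 scale. The 12 arrays fell into 3 sets by their numbers: numbers 1 and 2, 3 and 4, and 5 and 6. Each of the 12 samples was closer to its partner in the set than to any other sample of its group. The sets therefore limit how far 6 samples can count as 6 independent ones, and set by set values are given for each gene.

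Argininosuccinate lyase was the 1 gene of the 6 that passed the threshold of an adjusted p of 0.05. Its transcripts fell with proline, 2.55-fold, a log2 change of -1.35 ± 0.38 (SE, 6 samples each, limma adjusted p = 0.0355). This counts the 6 samples of a group as independent. With partners allowed to be correlated the SE was 0.61 and the adjusted p = 0.247. That fit used 1 correlation for all features, 0.593, and not one estimated for this gene. With partners averaged the adjusted p was 0.299. The call was lost in both fits. With partners averaged 0 of 3269 features passed, so the loss there does not single out this gene. Neither fit compared the groups within sets, and fits that do so are given below. CYN, APS4, CBL, PPDK and ETFQO did not pass, with log2 changes between -0.34 and 0.14. Over all 3045 tested features, meaning loci or probes without a single gene, 13.2% passed, 5.52% higher and 7.65% lower with proline, and among loci with a single name 10.5% passed. At an unadjusted p under 0.05, where AT5G10920 was again the 1 gene of the 6, the share was 30.8%. One pass among 6 genes is therefore near the share found over the whole array. The median log2 change was -0.20 for the 6 genes and -0.16 for all tested features, and the median absolute change was 0.20 for the genes and 0.54 for all features.

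**Figure D1:**
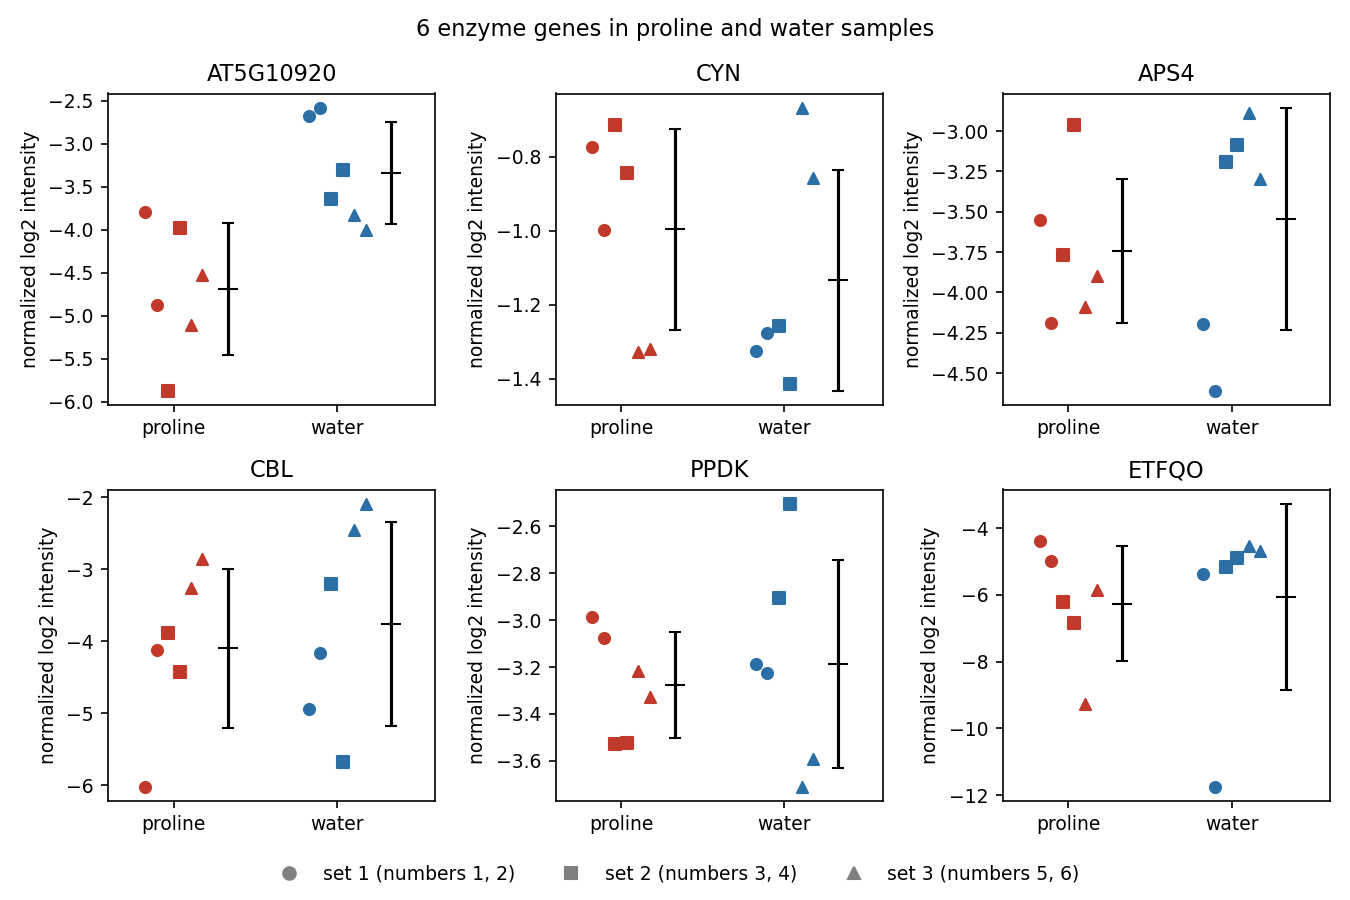
Normalized log2 intensity of the 6 genes in the 6 proline samples (red, left) and the 6 water samples (blue, right); the symbol gives the set, and the black bar the mean ± SD of each group. The proline and water samples overlap in all 6 genes, least in AT5G10920, and samples of the same set often lie together.

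The values of AT5G10920 lay lower in proline samples on the deposited scale as well. The lowest, median and highest deposited intensities were 0.0152, 0.0399 and 0.115 in proline samples, and 0.0349, 0.112 and 0.185 in water samples. After normalization the proline samples ran between -5.87 and -3.79, with a mean of -4.69 ± 0.77 (SD, n = 6), and the water samples between -3.999 and -2.58, with a mean of -3.34 ± 0.60 (SD, n = 6). The 2 proline samples that reached into the range of the water samples were numbers 1 and 4, and the water samples they overlapped were those of set 3. Over all features with 12 values, 10.3% had groups that did not overlap, and none of the 6 genes was among them.

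The fall of AT5G10920 was present in every pair of samples that shared a number. The 6 differences were -1.11, -2.29, -2.23, -0.67, -1.28 and -0.52 for numbers 1 to 6, and the mean changes of sets 1, 2 and 3 were -1.70, -1.45 and -0.90. A feature with all 6 pairs in one direction was common, at 31.1% of the features with 12 values. The exact two-sided permutation test over samples gave p = 0.0108 (0.0649 adjusted over the 6 genes). The exact two-sided sign-flip test over pairs gave p = 0.0312 (0.188 adjusted), the smallest that 6 pairs allow. Both tests take samples or pairs as independent, so their p-values are too small if partners repeat the same material. Partners within a set differed by up to 1.89 in log2, in the proline samples 3 and 4, and this largest difference between partners exceeded the mean change with proline.

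The call for AT5G10920 did not hold with partners correlated within a group or averaged, 2 fits that do not compare the groups within sets. The correlation of partners was modelled as a random block for each set of a group, and 2.69% of all features passed in that fit. Averaging partners left 3 samples against 3, and 0 features passed. The call was also lost with cyclic loess (-1.18, adjusted p = 0.0675), with no normalization between arrays (-1.25, 0.290) and with zeros kept at an offset of 0.001 (-1.17, 0.0689). With no normalization few features passed at all, 20 of 3045. The call held with arrays centred on their median (-1.31, adjusted p = 0.0417). Leaving out 1 sample ended the call in 7 of 12 cases, namely without proline samples 2, 3 or 5 or water samples 1, 2, 3 or 4, with adjusted p between 0.0546 and 0.0673. Leaving out set 1, 2 or 3 gave adjusted p of 0.0698, 0.176 and 0.0962. The features that passed in these fits were 589 of 2947, 29 of 2993 and 193 of 2956. With the set as a block shared by both groups AT5G10920 passed (0.0156), as did 25.7% of all features, and with the sample number as such a block it passed too (0.0285), as did 14.3%. The direction was the same under all 29 alternatives, with log2 changes between -1.54 and -0.997.

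**Figure D2:**
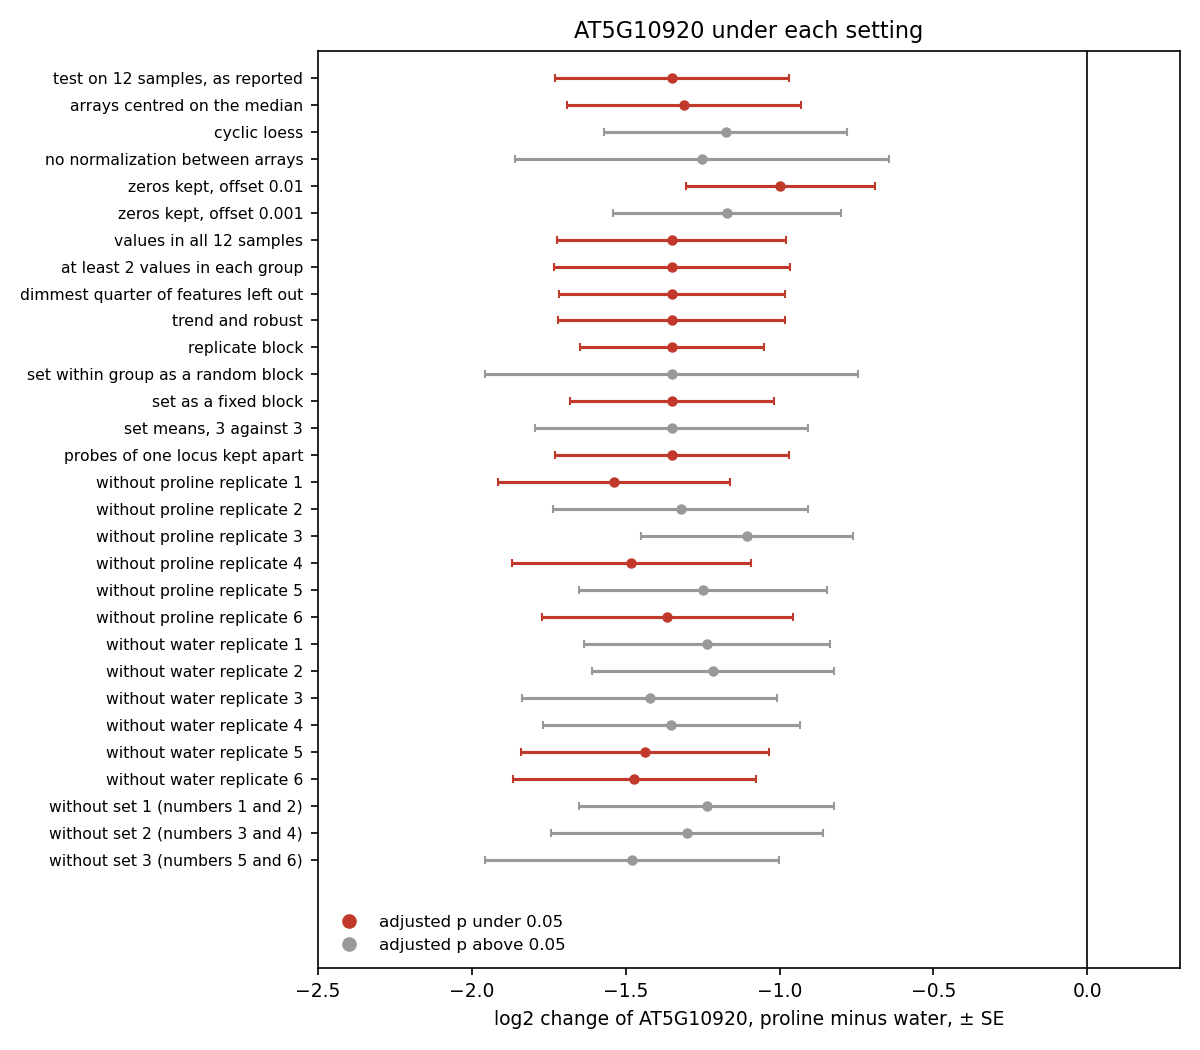
Log2 change of AT5G10920, proline minus water, with its SE, in the test on 12 samples (top) and under each of the 29 alternatives. All points lie below 0, between -1.54 and -0.997, and 14 of the 29 alternatives keep the adjusted p under 0.05 (red).

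For CYN, the cyanase gene, the log2 change was 0.14 ± 0.21 (SE, 6 samples each, limma adjusted p = 0.694), and its 95% interval ran from -0.31 to 0.59, or 0.806-fold to 1.501-fold. This average joined sets whose changes had opposite signs. In sets 1 and 2 the deposited intensities of CYN were 0.898, 0.763, 0.846 and 0.769 in proline samples, against 0.413, 0.428, 0.454 and 0.418 in water samples. In set 3 they were 0.281 and 0.271 in proline samples, against 0.423 and 0.372 in water samples. All 4 proline samples of sets 1 and 2 were thus above every water sample on the deposited scale, and both proline samples of set 3 were below every water sample. The arrays of set 3 were dimmer than the others in both groups, so comparisons across sets on that scale include array brightness. After normalization the set 3 proline samples, at -1.33 and -1.32, lay within the range of the water samples of sets 1 and 2, -1.41 to -1.26. Water sample 5, at -0.67, then lay above every proline sample.

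The signs of the set changes of CYN were the same with and without normalization between arrays. The mean log2 changes after quantile normalization were 0.42, 0.56 and -0.56 in sets 1, 2 and 3, and with no normalization between arrays 0.98, 0.89 and -0.52. Partners were close, with a median difference of 0.14 and a largest one of 0.22, so the changes within each set exceeded the spread between partners. A test of the difference between the sets, an interaction of treatment and set in limma added after the data were seen, gave an adjusted p of 0.0142 for CYN. The same test passed for 22.9% of the features with 12 values, and it takes partners as independent, so its p-values are too small if partners repeat the same material.

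For PPDK the log2 change was -0.09 ± 0.23 (SE, 6 samples each, limma adjusted p = 0.825), with a 95% interval of -0.59 to 0.41. The lowest, median and highest deposited intensities were 0.0635, 0.102 and 0.191 in proline samples, and 0.0425, 0.128 and 0.204 in water samples. The sets differed here too, in another order than for CYN: the mean log2 changes of PPDK were 0.18, -0.82 and 0.38 in sets 1, 2 and 3. In set 2 the deposited intensities were 0.102 and 0.103 in proline samples, against 0.161 and 0.204 in water samples. The interaction of treatment and set gave an adjusted p of 0.0166 for PPDK. The sign of the average is not settled, since it was above 0 with arrays centred on their median (0.02), cyclic loess (0.02) and no normalization between arrays (0.08). RefSeq lists 7 transcripts of PPDK in the TAIR10.1 annotation, and the plastid and cytosolic forms of the enzyme are made from different transcripts. Which of them the probe reads is not given in the sources used here.

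**Figure D3:**
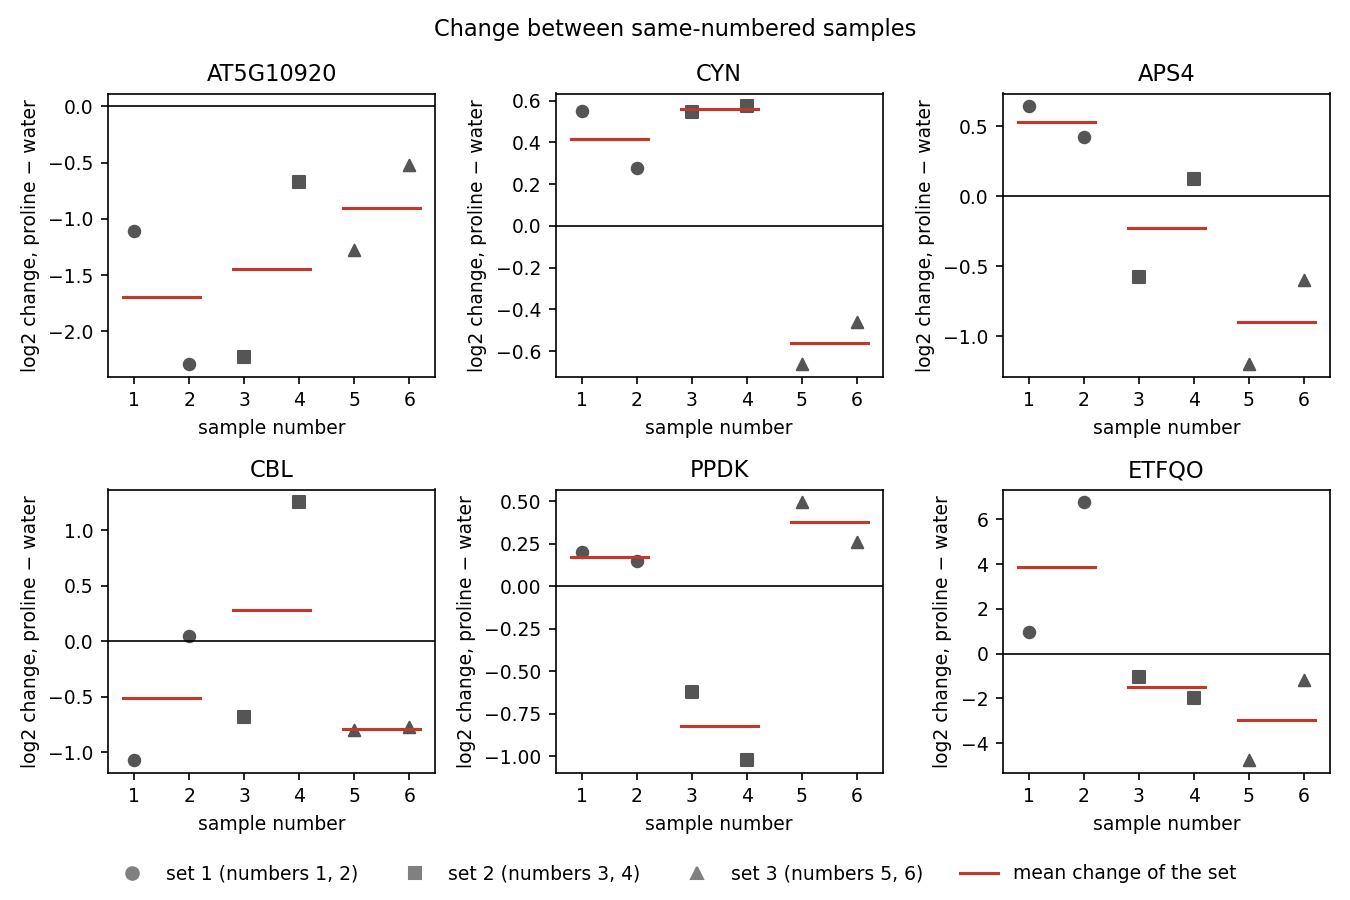
Log2 change between proline and water samples of the same number for the 6 genes, with the mean change of each set as a red line. AT5G10920 lies below 0 in all 6 pairs, CYN is above 0 in sets 1 and 2 and below 0 in set 3, and PPDK is below 0 in set 2 alone; the vertical scales differ between panels.

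The sulfur genes were not distinguishable from no change at this precision. For APS4 the log2 change was -0.20 ± 0.33 (SE, 6 samples each, limma adjusted p = 0.724), with a 95% interval of -0.92 to 0.52. Its lowest, median and highest deposited intensities were 0.0342, 0.0870 and 0.158 in proline samples, and 0.0573, 0.0768 and 0.138 in water samples, ranges that overlap widely. The mean changes of APS4 were 0.53, -0.23 and -0.90 in sets 1, 2 and 3, and the interaction did not pass (adjusted p = 0.118). APS4 is one of several related ATP sulfurylase genes of Arabidopsis, and whether its probe also reads the others was not tested.

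For CBL the log2 change was -0.34 ± 0.67 (SE, 6 samples each, limma adjusted p = 0.762), with a 95% interval of -1.78 to 1.10. Its lowest, median and highest deposited intensities were 0.0238, 0.0738 and 0.0930 in proline samples, and 0.0264, 0.0955 and 0.151 in water samples. Both groups had their highest normalized values in set 3, at set means of -3.06 with proline and -2.27 with water. The change with treatment was smaller than the range between set means, which was 2.004 in proline samples and 2.28 in water samples. Partners of CBL differed by as much as 2.47. Without proline sample 1, the lowest of its group, the log2 change was 0.04.

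ETFQO was the gene with the widest error of the 6. Its log2 change was -0.20 ± 1.197 (SE, 6 samples each, limma adjusted p = 0.931), with a 95% interval of -2.79 to 2.39. By its mean over samples its probe was brighter than 6.77% of the tested features, and its spread within groups exceeded that of 99.3% of them. Within single arrays its percentile was 0.154 in water sample 2 and 1.07 in proline sample 5, and reached 42.6 in proline sample 1. The lowest, median and highest deposited intensities were 0.000591, 0.0112 and 0.0783 in proline samples, and 0.000539, 0.0292 and 0.0445 in water samples. A single low value in each group weighed on the mean: water sample 2 had a normalized value of -11.74 and proline sample 5 one of -9.28. Without water sample 2 the log2 change was -1.35 (adjusted p = 0.209), without proline sample 5 it was 0.41 (0.835), and without set 1 it was -2.27 (0.0524). The mean changes of ETFQO in sets 1, 2 and 3 were 3.87, -1.51 and -2.96, and the size of the first rests largely on water sample 2. In set 1 both proline samples lay above both water samples, and the pair of number 1, which leaves water sample 2 out, differed by 0.98.

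The size of change that could have passed differed widely among the genes. Given the SE of each gene and the largest unadjusted p among the calls, 0.00650, a change of at least 1.59-fold would have been needed for CYN, 1.69-fold for PPDK, 2.11-fold for APS4, 2.36-fold for AT5G10920, 4.48-fold for CBL and 14.8-fold for ETFQO. For CYN and PPDK the samples varied less within groups than for most features, with SDs above those of 7.42% and 14.8% of the tested features. The 95% intervals leave room for average changes of up to 1.501-fold higher in CYN and 0.663-fold in PPDK. They count the 6 samples of a group as independent. With partners averaged the SE rose from 0.21 to 0.37 for CYN and from 0.23 to 0.39 for PPDK. Single sets lay outside these intervals, with log2 changes of -0.56 for CYN in set 3 and -0.82 for PPDK in set 2. CBL could have changed down to 0.291-fold or up to 2.15-fold within its interval. The SE of CBL depended on the fit. It was 0.67 in the reported test, 0.33 with the sample number as a block, 0.46 with the set as a block shared by both groups, and 0.95 with the random block.

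**Figure D4:**
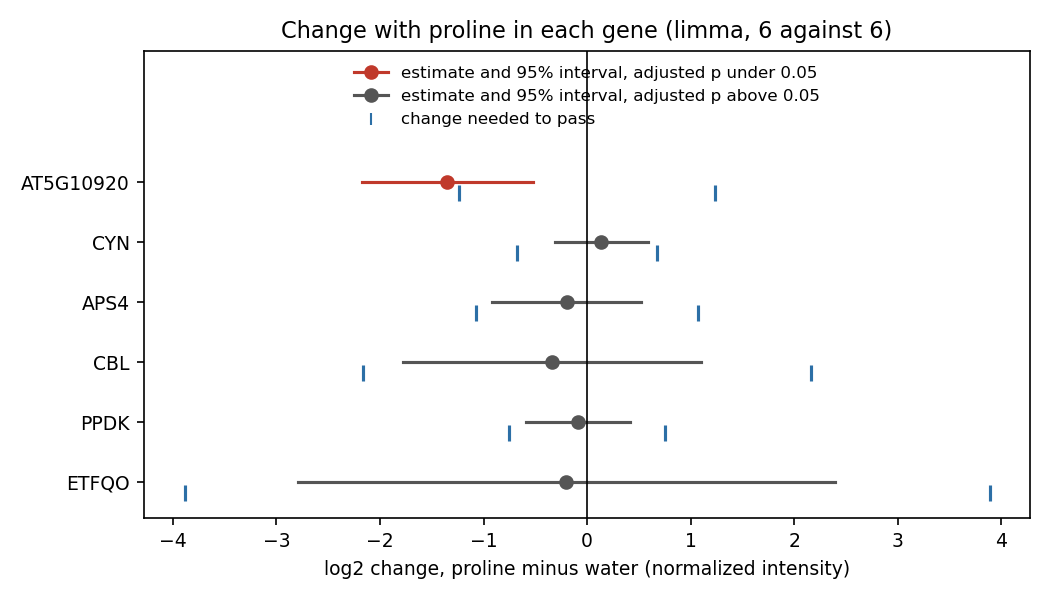
Log2 change with proline in each of the 6 genes with its 95% interval from limma on 6 proline and 6 water samples; blue ticks mark the change that would have been needed to pass. AT5G10920 at -1.35 lies beyond its tick, and the other 5 estimates lie between -0.34 and 0.14, inside theirs.

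Over the sets, only AT5G10920 had changes of the same sign in all 3 sets, whereas 48.9% of the features with 12 values did. The interaction of treatment and set passed for 2 of the 6, CYN and PPDK, which is near the 22.9% of the features with 12 values that passed, and for AT5G10920 (adjusted p = 0.737), CBL (0.755) and ETFQO (0.170) it did not. Other genes of the same pathways could not be set beside them. Of 99 loci on lists of arginine and urea, cyanide and nitrile, sulfate and cysteine, methionine, pyruvate and phosphoenolpyruvate, branched-chain amino acid, proline, and nitrate and ammonium metabolism, these 6 were the ones measured under a single gene name. None of the 10 loci of proline metabolism and none of the 15 of nitrate and ammonium assimilation was among them.

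The loci whose values ran most like each gene over the 12 samples were named from 445 loci with a single name and 12 values. The points share sets and arrays, so the correlations describe these arrays only. They also span both groups, so a difference between proline and water, or its absence, is part of what picked these loci. The changes of these loci are therefore a description and no separate evidence. For AT5G10920 these were AT3G18870 (Pearson r = 0.848), of the mTERF family of organellar factors, and AT1G71910 (r = 0.834), both lower with proline, with log2 changes of -2.72 (limma adjusted p = 0.0196) and -1.58 (0.0188). Neither passed with the random block (adjusted p = 0.134 and 0.168). For APS4 they were AT4G37420 (r = 0.901) and AT4G30680 (0.901), and for CYN AT3G52070 (0.858) and AT4G24750 (0.823). For ETFQO they were AT4G38040 (0.815) and AT2G33180 (0.662), for PPDK NdhS (AT4G23890, r = 0.765), a subunit of the chloroplast NADH dehydrogenase-like complex, and AT2G19870 (0.737), and for CBL AT4G34310 (0.728) and AT2G35490 (0.704). None of the loci named for the 5 genes other than AT5G10920 passed, and the lowest adjusted p among them was 0.169, that of AT4G24750.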

How the data were processed

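The members and the pathway lists were chosen with earlier results of these data known. The authors deposited 1 table of relative intensity with 3439 probes and 12 columns. That the values are linear was read from the values, which run from 0 to 61.4, with 8.43% at exactly 0. The scanner, the number of colours, the background correction, the scaling and any centring were not stated in the labels or the table, and the direction of the values was taken as brightness. The medians of the values above 0 for numbers 1 to 6 were 0.0963, 0.0957, 0.0678, 0.0698, 0.0345 and 0.0335 in proline samples and 0.0759, 0.0812, 0.0780, 0.0758, 0.0325 and 0.0335 in water samples. Signal over background could not be computed, and the number of arrays limits the precision.

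Probes were named from a platform annotation, which can be old, updated through gene identifiers to RefSeq names of TAIR10.1. Of the probes, 692 had 1 gene, 870 several and 1877 none listed; 2 identifiers were not in the gene table. Coordinates were left out, as no genome build is named. Zeros were treated as missing, log2 values were quantile normalized, and probes of a locus were averaged. The test was limma 3.58.1 (lmFit, eBayes; R 4.3.3, statmod 1.5.0) on features with 4 or more values per group, with Benjamini-Hochberg adjustment over all 3045 features. The sets were read from the arrays: partners differed by a median of 0.24 to 0.41 in log2, other samples of a group by 0.49 to 0.85. Deviations of same-numbered samples from their group means correlated at 0.134 to 0.256 over features, and each sample correlated best with its own number, so the numbers were taken to pair the samples, on the evidence of the data and not of the labels. The alternatives were 3 other scalings, 2 treatments of zeros, filters, a variance trend, blocks, set means and samples or sets left out. In simulated data with 3045 features, 12 independent samples and 200 changed ones, limma recovered 28.4% at a log2 change of 1 and 78.1% at 2. The named genes were the 6 members, listed pathway genes with a single name, and for each member the 2 most correlated loci. Figures were drawn with matplotlib 3.10.9.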

Additional observations from a re-analysis of the deposited data

Results flagged for a closer look

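Among the 12 groups of values tested, 1 held a sample far from the rest of its group. For independent values chance passes the cutoff of this flag in about 1 group in 20. That rate describes the cutoff and not the size of the gap seen here, which was 0.883 of the range of the group. The cause of the low value was not tested. Partners in a set may not be independent. Water sample 2 lay at -11.74 for ETFQO on the normalized log2 scale, while its nearest neighbour lay at -5.38. The change with proline differed between the sets for CYN (adjusted p = 0.0142) and PPDK (adjusted p = 0.0166) in the interaction of treatment and set. Both also passed with arrays centred on their median (0.00489 and 0.0206), with cyclic loess (0.0109 and 0.0171) and with no normalization between arrays (0.00361 and 0.00669). The test passed for 22.9% of the features with 12 values in the reported scaling, and for 20.7%, 21.2% and 27.6% in these 3, so passing was common on this array. What the sets are is not given in the sources used here, and whether their partners repeat the same material was not tested.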

How the results depend on the processing

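Over all features, 401 passed. The count was 20 with no normalization between arrays, 82 with the set as a random block and 783 with the set as a fixed block. It was 589 without set 1, 29 without set 2 and 193 without set 3, and 245 to 480 when 1 sample was left out. With set means limma called 0 features, and 472 had an unadjusted p under 0.05. Calls higher with proline made up 41.9% of all calls, 62.6% with arrays centred on their median, 54.1% with cyclic loess, 85.0% without normalization, and 54.2% and 56.1% with zeros kept at offsets of 0.01 and 0.001. The median change of all features was -0.16 in the reported test and -0.02 with zeros kept at an offset of 0.01, and AT5G10920 lay 1.19 and 0.98 below those medians. Among the 6 genes 1 passed; 0 passed with cyclic loess, no normalization, an offset of 0.001, the random block, set means, or without set 1, 2 or 3, and 0 to 1 when 1 sample was left out. With the number as a replicate block the count was 436, AT5G10920 passed again (adjusted p = 0.0285), and no call among the 6 genes changed.

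Signs of changes that did not pass turned in several settings. CYN was at -0.00508 without set 1 and -0.0738 without set 2, and APS4 at 0.15 without set 3. CBL ran from -0.73 to 0.0420 when 1 sample was left out. PPDK was at 0.0249 with arrays centred on their median, 0.0238 with cyclic loess, 0.0831 without normalization, 0.0176 and 0.0228 with zeros kept at offsets of 0.01 and 0.001, and 0.28 without set 2, and ran from -0.19 to 0.0480 when 1 sample was left out. ETFQO was at 0.45 without set 2 and 1.18 without set 3, and ran from -1.35 to 0.41 when 1 sample was left out; it was among the dim features that 1 setting left out, which gave no value for it. The cause of these shifts was not tested. No result here can be read as showing equal levels.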
